A study of Mus musculus with 6 samples.

Results

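Scarb1, Npc1, Npc2, Gramd1a, Gramd1b, Gramd1c, Abca1, Osbp and Soat1 are 9 genes of cholesterol uptake and intracellular sterol transport, described here in mouse 2-cell embryos. The group was chosen by role with earlier results of these libraries known, and Gramd1a was selected on its lower counts in embryos from delipidated zygotes, in the same contrast that is described below. The 9 genes are 9 of 30967 genes with a count in any library, out of 48967 genes listed. Because the choice used this contrast, differences of the 9 genes between groups are given as a description, with no test.

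Cells take up cholesterol from lipoproteins, either as cholesteryl ester through a surface receptor or by endocytosis and release in the lysosome. Free sterol then moves between the plasma membrane, lysosome, Golgi and endoplasmic reticulum by carrier proteins at membrane contact sites. Surplus cholesterol is esterified in the endoplasmic reticulum and stored in lipid droplets, or passed out of the cell by ABC transporters.

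The study removed lipid droplets from zygotes and measured RNA in the 2-cell embryos that formed from them. Both groups were F1 (C57Bl/10 X CBA/H) embryos of genotype wt, kept in KSOM medium without fatty acids between 0.5 and 2.0 dpc (days post coitum) and sampled at day 2. For delipidation, zygotes were centrifuged with cytochalasin B at 50 µg/mL, and the gathered droplets were drawn out with a pipette through a laser opening in the zona pellucida. Each group had 3 libraries of total RNA depleted of ribosomal RNA, and each library was a pool of 3 embryos. The labels give culture from the zygote as the treatment of both groups and state none of the centrifugation, cytochalasin B or micromanipulation for controls, so lipid removal and this handling cannot be told apart. Nor can a difference in all 3 embryos of a pool be told apart from a larger one in a single embryo, or less RNA of a gene per cell from fewer cells holding it.

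Counts assigned to genes were 12164963, 16165958 and 12980787 in control libraries 1, 2 and 3, and 20059460, 16332103 and 14683741 in delipidated libraries 1, 2 and 3. A gene's count is the sum over its exonic parts, the segments into which the annotation divides its exons, and because reads reach across parts such sums exceed the number of reads. The controls had a count in 22855, 22437 and 20582 genes, against 17091, 19408 and 20158 genes in the delipidated libraries. All 3 delipidated libraries thus had fewer counted genes than any control, and the deepest library had the fewest.

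The 2-cell label was compared with marker genes. Of 10 markers of the 2-cell stage 9 were counted in every library except delipidated library 1, which had 8, and all 9 passed the filter on low counts. The tenth symbol, Dux, is not used in the annotation, which lists that gene as Duxf3, already among the 9. Their summed level was 302.4, 131.6 and 274.3 CPM in the controls and 158.6, 228.2 and 319.8 CPM in the delipidated libraries, where CPM is counts per 1000000 of the library's total over tested genes, scaled by TMM. All 8 maternal oocyte transcripts were counted in every library, with sums of 1312, 863.1 and 1211 CPM in controls and 1011, 1162 and 1483 CPM in delipidated libraries. Both marker sets overlapped between the groups.

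Compared per length, Osbp stood apart from the other 8 genes. Its mean over the 6 libraries was 23.6 CPM per kb of exonic sequence (SD 5.34), and no library's value came as low as any value of the next gene. Npc2 followed at 6.25 CPM per kb (SD 2.88). Scarb1 at 3.03 (SD 1.44), Soat1 at 2.97 (SD 0.235), Gramd1c at 2.68 (SD 1.44) and Npc1 at 2.66 (SD 0.638) CPM per kb did not differ from one another beyond the spread. Gramd1b had 1.63 CPM per kb (SD 0.612), and Abca1 and Gramd1a were lowest, both at 0.377 CPM per kb (SD 0.656 and 0.661). The order of these last genes differed by group. Abca1 had means of 0.576 CPM per kb in controls and 0.177 in delipidated libraries, and Gramd1a 0.754 and 0. Of the 8 neighbouring pairs in this order, Osbp and Npc2 were the only one whose ranges over the libraries did not overlap. The genes lie on 9 different chromosomes, and 7 of the 9 were counted in every library.

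**Figure D1:**
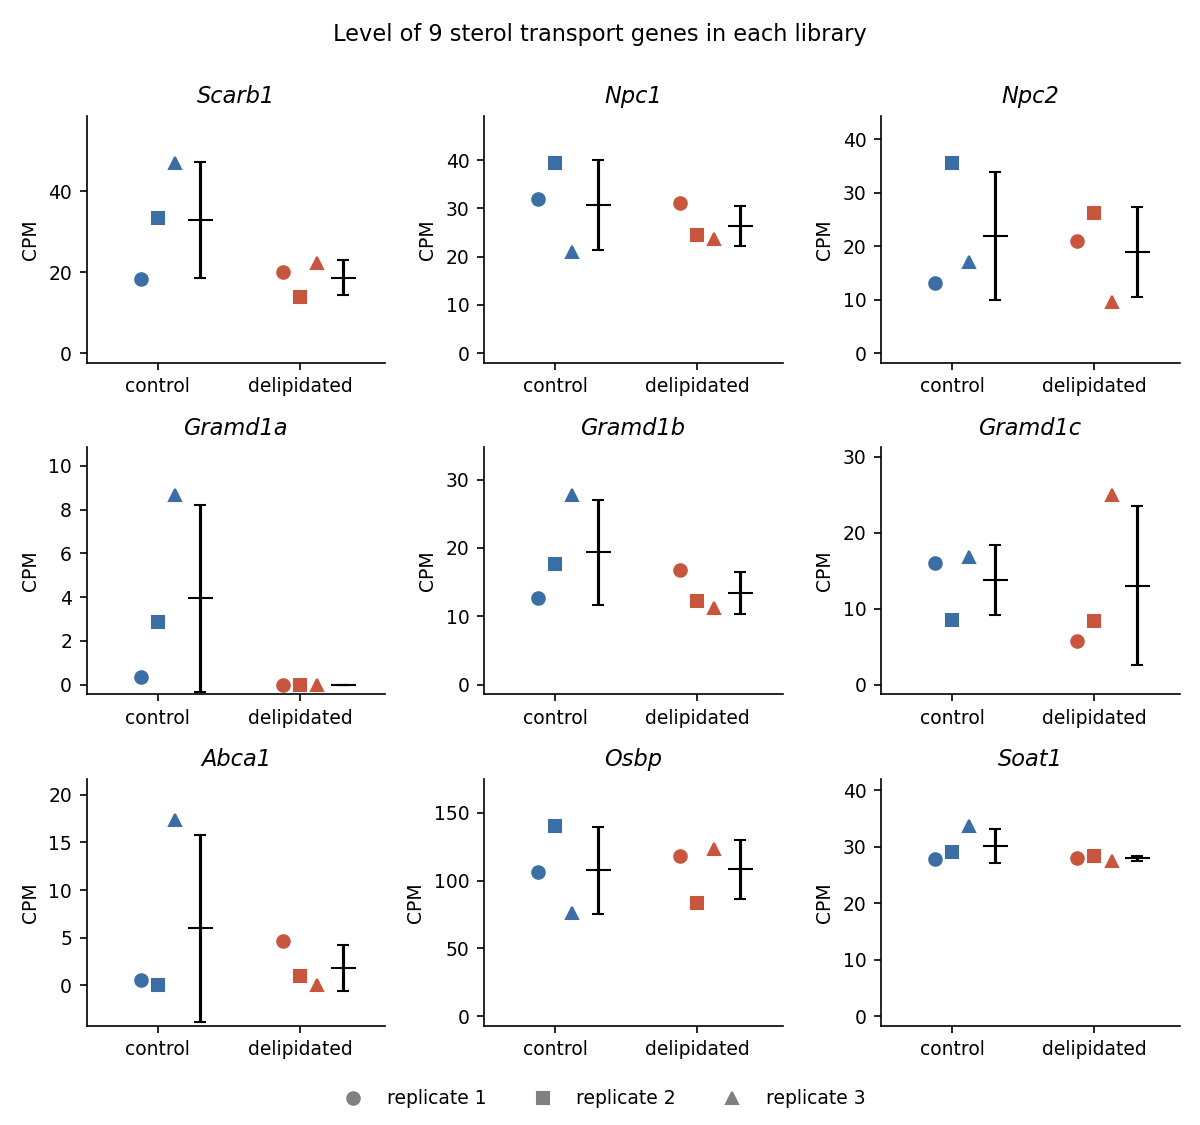
CPM (vertical axis) of each of the 9 genes in control and delipidated libraries, with a point per library and the mean ± SD of 3 libraries beside it. Gramd1a was at 0 CPM in all 3 delipidated libraries, and the 8 other genes overlapped between the groups.

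Scarb1 encodes the scavenger receptor SR-BI, which binds high-density lipoprotein and takes up cholesteryl ester from it. The gene (ENSMUSG00000037936) lies at chr5:125277087-125341094 on the minus strand (GRCm38) and is listed as 34 exonic parts. In control libraries 1, 2 and 3 Scarb1 stood at 18.2, 33.4 and 46.9 CPM, and in the delipidated libraries at 19.997, 13.9 and 22.2 CPM. Control libraries 2 and 3 lay above every delipidated library, but control library 1 lay among them, so the groups overlapped. The means were 32.9 ± 14.3 and 18.7 ± 4.26 CPM (SD, n = 3 each), with a log2 fold change of −0.81 (SE 0.42) that became 0.49 with the part of most counts in place of the sum.

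The gene total of Scarb1 joined exons where the groups were apart and exons where they overlapped, a pattern noticed after the values were seen and not tested. Over the longest part of each of exons 8 to 10 of the transcript Scarb1-201, the controls held 70, 157 and 190 counts and the delipidated libraries 4, 8 and 11. These exons stood at 9.95 ± 4.29 CPM in controls and 0.489 ± 0.290 CPM in delipidated libraries (SD, n = 3 each), 20.4-fold lower, and between 15.7-fold and 28.9-fold lower with any 1 library left out. Every control library lay above every delipidated library there. A read that spans several of these exons is counted on each, so the largest part, with 28, 57 and 74 counts in controls and 2, 4 and 9 in delipidated libraries, was taken as well, a choice made after the values were seen. It was 11.7-fold lower, between 8.65-fold and 22.1-fold with any 1 library left out, and copies made by PCR are not told apart in either figure. Over exons 2 to 5, measured the same way, the controls held 47, 105 and 96 counts and the delipidated libraries 179, 98 and 112. The means of exons 2 to 5 were 5.87 ± 1.72 and 7.59 ± 1.44 CPM, and the groups overlapped. Taken alone, the longest part of exon 4 was higher in every delipidated library than in any control, while the other part of exon 4 overlapped.

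The ratio of counts on exons 8 to 10 to counts on exons 2 to 5 needs no scaling between libraries. It was 1.49, 1.50 and 1.98 in control libraries 1, 2 and 3, and 0.0223, 0.0816 and 0.0982 in the delipidated libraries. Over these libraries every ratio in controls was above 1 and every ratio in delipidated libraries was below 0.1. Exons 8 to 10 were picked out for their low counts, so this gap describes the choice and is no test. The ratios use sums in which a read on several exons is counted on each, and were not redone with the largest part. Exon 11 had 19, 34 and 27 counts in controls and 0, 0 and 20 in delipidated libraries, and in CPM every delipidated library was below every control. Parts found only in retained-intron or other noncoding transcripts of Scarb1 held 9, 42 and 46 counts in controls and 0 in each delipidated library. Such parts held 13, 4 and 21 counts in controls against 0, 0 and 4 in delipidated libraries for Npc1, 0, 13 and 5 against 0 in each for Gramd1a, 0, 0 and 8 against 0 in each for Gramd1b, 0, 5 and 5 against 0, 0 and 3 for Soat1, and 1, 0 and 0 against 0, 6 and 0 for Gramd1c. Over all protein-coding genes the share of counts on such parts overlapped between the groups.

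Over the whole series, 129142 exonic parts had a mean of at least 10 counts over the 6 libraries, a background chosen after the values were seen. In 4.48% of them every delipidated library was below every control and in 4.52% above, where chance gives 10% for both together. The means were in addition at least 10-fold apart in 0.248% with the delipidated libraries below and 0.265% with them above, so such parts were about as common in both directions. Scarb1 had 18 parts with that depth, 4 below, 3 of these by at least 10-fold, and 2 above. Other genes of the group had such parts too: 2 of 14 below in Osbp, 2 of 15 above in Npc1 and 1 of 21 below in Soat1. None of these was at least 10-fold apart. As the exons of Scarb1 were picked out for their low counts, nothing is read from these numbers. Since neighbouring exons share reads, the 3 parts of Scarb1 are not separate measurements: exons 9 and 10 held 28 and 26 counts in control library 1, 57 and 56 in control library 2, and 58 each in control library 3.

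The sequences of exons 8, 9 and 10 are shown because they are the stretch with few counts after delipidation. They are coding sequence on the minus strand of GRCm38, at chr5:125289637-125289755, chr5:125287359-125287432 and chr5:125284681-125284732.
Scarb1 exon 8: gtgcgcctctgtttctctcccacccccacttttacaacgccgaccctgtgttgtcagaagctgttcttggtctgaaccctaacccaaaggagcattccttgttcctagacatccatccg
Scarb1 exon 9: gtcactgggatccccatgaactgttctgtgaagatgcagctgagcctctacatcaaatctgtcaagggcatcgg
Scarb1 exon 10: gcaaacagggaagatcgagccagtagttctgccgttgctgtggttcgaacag

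Scarb1 makes 2 receptor forms that differ at the C terminus by whether exon 12 is kept. The exon is 129 bases long, lies at chr5:125281105-125281233, and ends in the stop codon of Scarb1-201. The transcript Scarb1-202 lacks it and reads on into the last exon. Exon 12 held 12 counts in control library 2 and 0 in each of the other 5 libraries, while the longest part of exon 13, shared by both transcripts, held 4, 16 and 18 counts in controls and 23, 7 and 6 in delipidated libraries. With so few counts on either exon, a difference between the groups in the use of exon 12 was not detectable at this depth. The exon is shown with its stop codon in capitals.
Scarb1 exon 12: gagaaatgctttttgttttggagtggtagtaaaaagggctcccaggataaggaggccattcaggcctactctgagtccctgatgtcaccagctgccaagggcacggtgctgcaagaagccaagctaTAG

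**Figure D2:**
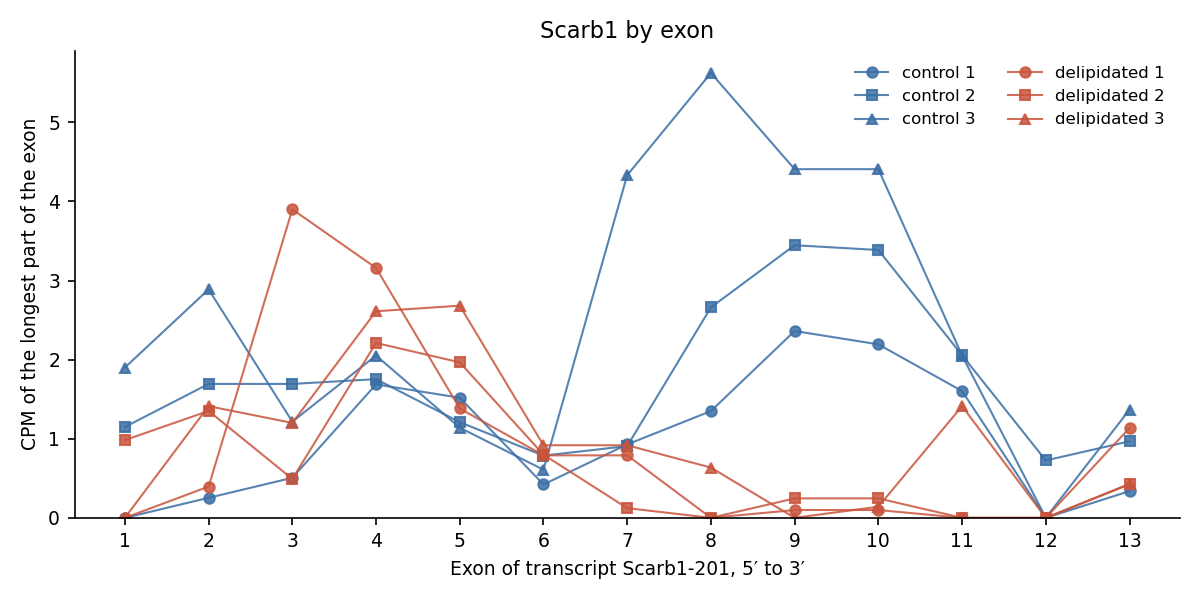
CPM on the longest exonic part (vertical axis) of each of the 13 exons of Scarb1-201 (horizontal axis), with a line per library. Every delipidated library is below every control at exons 8, 9, 10 and 11 and above every control at exon 4. At exon 6 the nearest values are 0.790 and 0.786 CPM, a gap lost when scaled to library totals. The groups overlap at the other 7 exons, except that with that scaling exon 7 is below in every delipidated library.

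Npc1 and Npc2 hand cholesterol on from the lysosome. Npc2 is a soluble protein of the lysosomal lumen that carries free cholesterol to Npc1, a membrane protein that moves it out. Npc1 (ENSMUSG00000024413), at chr18:12189692-12236400 on the minus strand, stood at 32.0, 39.3 and 20.9 CPM in control libraries 1, 2 and 3 and at 31.1, 24.4 and 23.6 CPM in the delipidated libraries. All delipidated values of Npc1 fell within the control range. Its means were 30.7 ± 9.27 and 26.3 ± 4.10 CPM (SD, n = 3 each), with a log2 fold change of −0.22 (SE 0.37). Of its 2664 counts, 572 were on parts that a gene on the other strand overlaps, and since reads of both strands may enter them they are uncertain.

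For Npc2 (ENSMUSG00000021242), at chr12:84754562-84773152 on the minus strand, the control libraries gave 13.1, 35.4 and 17.1 CPM and the delipidated libraries 20.9, 26.1 and 9.60 CPM. Control library 2 was the highest and delipidated library 3 the lowest, and the others were mixed. The means were 21.9 ± 11.9 and 18.9 ± 8.44 CPM (SD, n = 3 each), with a log2 fold change of −0.21 (SE 0.51), or 0.24 with the part of most counts. All 4 exonic parts of Npc2 were counted in every library.

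Gramd1a, Gramd1b and Gramd1c encode the Aster proteins, which sit in the endoplasmic reticulum and take up cholesterol from the plasma membrane at contact sites. Gramd1a (ENSMUSG00000001248) lies at chr7:31130127-31155896 on the minus strand. It had 4, 47 and 114 counts in control libraries 1, 2 and 3, which are 0.337, 2.84 and 8.67 CPM, and 0 counts in each delipidated library. The controls differed widely among themselves, and control library 3 held most of the counts. The control mean was 3.95 ± 4.27 CPM (SD, n = 3), a spread larger than the mean, and the gene did not pass the filter on low counts.

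The counts of Gramd1a stood on few of its 46 exonic parts. Control libraries 1, 2 and 3 had counts on 2, 7 and 12 parts, no part was counted in all 3, and 2 parts were counted in 2 of them. In control library 3 the same count of 11 stood on 8 of the 12 parts, and in control library 2 the same count of 8 stood on 4 of the 7. A read that spans several parts is counted in each of them, so the largest part, with 2, 8 and 11 counts, is a lower limit for the number of reads. With a floor of 3 reads set for the whole delipidated group, Gramd1a was 8.54-fold lower there than in controls. This describes the counts it was chosen by and is no test. The value was 10.8-fold without control library 1, 8.78-fold without control library 2 and 5.95-fold without control library 3. It allows for counting error in the delipidated group alone, not in the controls, and not for the spread between controls. Copies of a molecule made by PCR are not told apart.

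Of the 114 counts in control library 3, 55 were on parts overlapped by a gene on the other strand. A further 5 counts there, and 13 of 47 in control library 2, were on parts of retained-intron transcripts. Exon 8 carried 11 counts on each of its 2 parts in control library 3 and none in the other 5 libraries. Its sequence, coding and free of overlap with the other strand, lies at chr7:31139757-31139869 on the minus strand.
Gramd1a exon 8: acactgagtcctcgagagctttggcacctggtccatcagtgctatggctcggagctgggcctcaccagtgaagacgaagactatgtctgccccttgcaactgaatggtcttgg

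**Figure D3:**
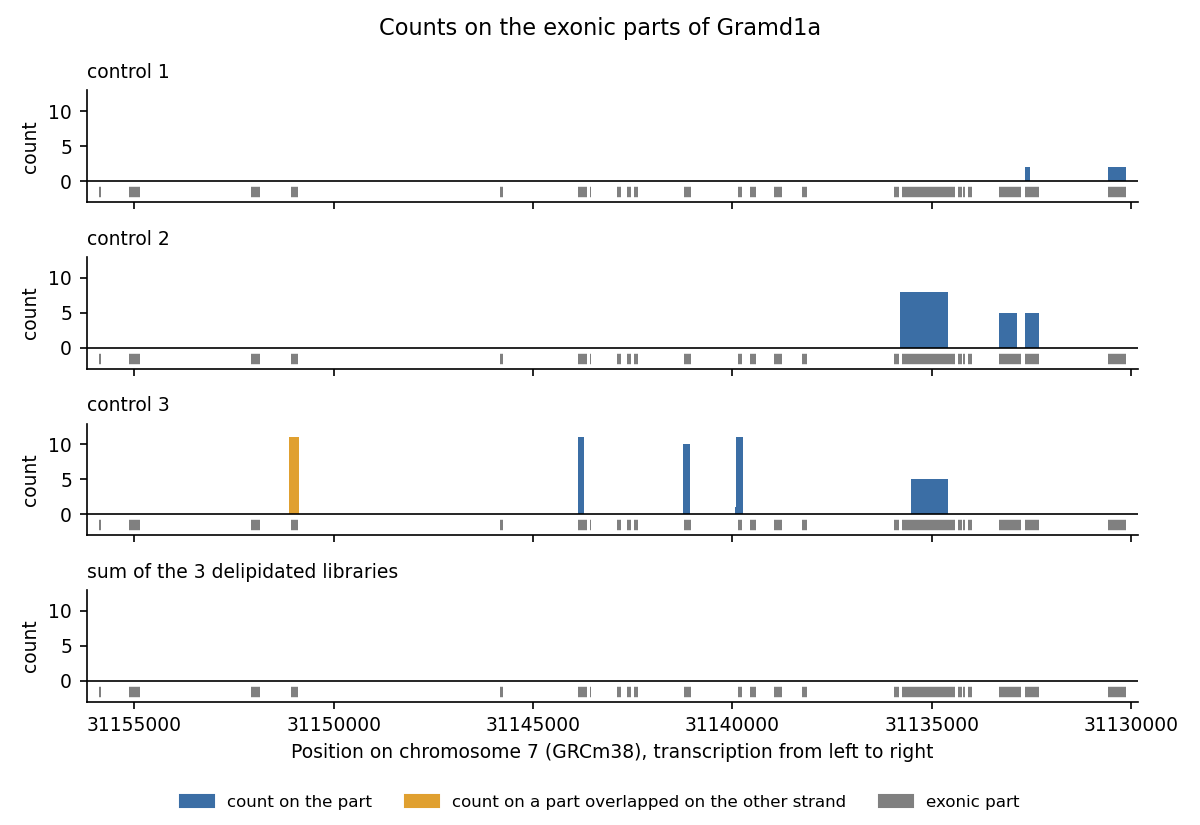
Counts (vertical axis) on each exonic part of Gramd1a against position on chromosome 7 (horizontal axis) in the 3 control libraries and in the sum of the 3 delipidated libraries. No part is counted in all 3 control libraries, and the largest part holds 2, 8 and 11 counts in them.

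Being counted in every control and in no delipidated library was not limited to Gramd1a: of 16228 genes counted in all 3 controls, 321 (1.98%) were at 0 in all 3 delipidated libraries. Within the group 1 gene was so, and since Gramd1a was chosen for it nothing is read from that count. Fewer genes of any kind were counted in delipidated libraries, as given above, and the part of this in the zeros of Gramd1a was not tested.

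Gramd1b (ENSMUSG00000040111), at chr9:40293233-40531383 on the minus strand, was read across many of its exons, in contrast to Gramd1a. It stood at 12.7, 17.7 and 27.7 CPM in control libraries 1, 2 and 3 and at 16.8, 12.2 and 11.2 CPM in the delipidated libraries. Delipidated libraries 2 and 3 were below every control, and delipidated library 1 was not, so the groups overlapped. The means were 19.4 ± 7.68 and 13.4 ± 3.03 CPM (SD, n = 3 each), with a log2 fold change of −0.53 (SE 0.45), or 0.31 with the part of most counts. Of its 1505 counts, 192 were on parts overlapped by a gene on the other strand.

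For Gramd1c (ENSMUSG00000036292), at chr16:43980350-44063345 on the minus strand, the control libraries gave 16.03, 8.53 and 16.9 CPM and the delipidated libraries 5.78, 8.35 and 25.0 CPM. Delipidated library 3 held the highest value and the other delipidated libraries the lowest. The means were 13.8 ± 4.60 and 13.04 ± 10.4 CPM (SD, n = 3 each), with a log2 fold change of −0.08 (SE 0.60) that became −0.97 without delipidated library 3 and 0.72 with the part of most counts. Nearly all counts fell on the 3′ portion of the gene. Exons 7 to 18 of the long transcript, which short transcripts share, held 165, 118 and 192 counts in controls and 76, 104 and 263 in delipidated libraries. Exons 1 to 6, found in the long transcript alone and 587 bases in length, held 0 counts in every library but delipidated library 3, which had 5. Counts from the first 6 exons were therefore at or near 0 in both groups.

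Osbp exchanges cholesterol for phosphatidylinositol 4-phosphate between the endoplasmic reticulum and the Golgi, and was the most abundant of the 9 genes per length in every library. Osbp (ENSMUSG00000024687), at chr19:11965941-11994112 on the plus strand, stood at 106.7, 139.997 and 75.9 CPM in control libraries 1, 2 and 3 and at 118, 83.5 and 124 CPM in the delipidated libraries. All delipidated values fell within the control range. The means were 108 ± 32.0 and 108 ± 21.7 CPM (SD, n = 3 each), with a log2 fold change of 0.01 (SE 0.28). Of its 14 exonic parts 13 were counted in every library.

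Soat1 esterifies cholesterol in the endoplasmic reticulum for storage in lipid droplets, and was the steadiest gene of the group. Soat1 (ENSMUSG00000026600), at chr1:156424525-156474331 on the minus strand, stood at 27.8, 29.0 and 33.6 CPM in control libraries 1, 2 and 3 and at 28.0, 28.4 and 27.5 CPM in the delipidated libraries. The highest library was 1.22-fold above the lowest, the smallest such ratio among the 7 genes counted in every library, and the groups overlapped. The means were 30.1 ± 3.07 and 27.9 ± 0.462 CPM (SD, n = 3 each), with a log2 fold change of −0.11 (SE 0.33), or 0.37 with the part of most counts.

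Abca1 passes cholesterol and phospholipid out of the cell to apolipoprotein A-I. Abca1 (ENSMUSG00000015243), at chr4:53030787-53159895 on the minus strand, stood at 0.591, 0 and 17.3 CPM in control libraries 1, 2 and 3 and at 4.59, 0.921 and 0 CPM in the delipidated libraries. A control and a delipidated library were both at 0, and control library 3 alone gave most of the control mean of 5.97 ± 9.84 CPM, against 1.84 ± 2.43 CPM in delipidated libraries (SD, n = 3 each). The log2 fold change of −1.69 (SE 1.78) became 2.64 without control library 3. Counts were on 1, 0 and 20 of its 52 parts in controls and on 3, 5 and 0 parts in delipidated libraries, and in delipidated library 1 the same count of 31 stood on all 3.

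Control library 3 held the highest value of Scarb1, Gramd1a, Gramd1b, Abca1 and Soat1, but the lowest value of Npc1 and Osbp. Npc2 was highest in control library 2 and Gramd1c in delipidated library 3. The sum of cumulus and granulosa markers was highest in control library 3, with Cyp11a1 or without it. Of 10 cumulus and granulosa genes 8 had a count, 2 passed the filter, and Ptx3 and Foxl2 were at 0 throughout. Their summed level was 2.87, 9.19 and 66.7 CPM in control libraries 1, 2 and 3 and 1.38, 8.42 and 6.49 CPM in the delipidated libraries. Cyp11a1, the enzyme that opens steroid synthesis from cholesterol, had 653 counts in control library 3, 4 in control library 1 and 0 elsewhere, and at 49.6 CPM it gave most of that library's sum. Without it the sums were 2.53, 9.19 and 17.1 CPM in controls and 1.38, 8.42 and 6.49 CPM in delipidated libraries. Nr5a1 had 4, 0 and 30 counts and Inhba 15, 0 and 20 in controls, and both had 0 in each delipidated library. Star, which brings cholesterol to that enzyme, had 0, 80 and 82 counts in controls and 0, 10 and 43 in delipidated libraries. The most abundant gene of the list per length was Tnfaip6, with 9, 44 and 86 counts in controls and 17, 110 and 49 in delipidated libraries. Has2 had 0, 23 and 6 counts in controls and 11, 0 and 0 in delipidated libraries, and Amh 0, 5 and 1 against 0, 17 and 0. Fshr had 2 counts in control library 1 and 0 elsewhere. Thus not all genes of the list were highest in control library 3. The study took cumulus cells off the zygotes with hyaluronidase, and the part of other cells in the values of control library 3 was not tested.

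Summed leukocyte and oviduct markers overlapped between the groups. The 8 leukocyte genes, 3 of which passed the filter, summed to 10.6, 5.32 and 5.70 CPM in controls and 1.19, 3.56 and 10.5 CPM in delipidated libraries, with Cd68 the most abundant per length at 50, 11 and 0 against 0, 5 and 57 counts. Cd14, with 3, 14 and 2 counts, and Lyz2, with 2, 8 and 8, did not overlap, as both had 0 in each delipidated library. C1qb went the other way, with 14, 0 and 0 counts in controls and 17, 31 and 24 in delipidated libraries. Its log2 fold change was 1.91 (SE 1.84), and its groups overlapped in CPM. Of the genes with a count, 4 of 8 leukocyte and 4 of 8 cumulus and granulosa genes were at 0 in all delipidated libraries. Among all genes with a count, 6814 of 30967 were so. None of the marker genes at 0 there passed the filter on low counts, which 16020 of the 30967 genes did. Genes of like depth were not compared, so nothing is read from these shares. Of 6 oviduct epithelium genes 5 had a count and Wfdc2 was at 0. They summed to 86.8, 247.1 and 120.1 CPM in controls and 170.3, 202.2 and 111.0 CPM in delipidated libraries. Most of that sum was Epcam, with 978, 3648 and 1462 counts in controls and 3160, 3146 and 1523 in delipidated libraries, a gene that embryos express themselves.

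Of the 9 genes 8 passed the filter on low counts, 7 of them with a negative log2 fold change and Osbp with a positive one (−0.014 when scaled to library totals alone), and all 8 overlapped between groups. The signs depended on how parts were summed: with the part of most counts in place of the sum, 6 of the 7 genes with a value were positive. Over all 16020 genes tested, 3.81% were above and 5.05% below in delipidated libraries without overlap. A gene was called where edgeR's quasi-likelihood test gave an adjusted p (Benjamini-Hochberg) below 0.05 and a log2 fold change above 1 or below −1. By this rule 0 of 16020 genes were called higher (0%) and 0 lower (0%), and the smallest adjusted p-value was 0.0721. At an unadjusted p-value under 0.05 there were 463 genes, 184 higher and 279 lower. DESeq2, which was run with no filter, called 9 genes higher and 40 lower. Of the 9 genes edgeR as set called 0, limma-voom called 0, and edgeR without the filter and DESeq2 each called 1 lower, Gramd1a. Because Gramd1a was selected on this contrast, nothing is read from these counts.

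Other genes of sterol transport, taken from 5 lists set by role, gave a wider view of the pathway. Of 63 genes 61 had a count and 53 were tested, 32 with a positive and 21 with a negative log2 fold change, and the median was 0.07 against −0.00073 over all genes tested. None was called higher or lower by edgeR, 1 had an unadjusted p-value under 0.05, and DESeq2 called 0 of them. That gene was Vapb, an anchor in the endoplasmic reticulum that binds Osbp and its relatives at contact sites. It stood at 13.7, 9.62 and 6.46 CPM in control libraries 1, 2 and 3 and at 22.7, 14.6 and 24.3 CPM in the delipidated libraries. Every delipidated library was above every control. Its log2 fold change was 1.05 (SE 0.46), higher in 3 of 3 delipidated libraries than in any control, with an edgeR unadjusted p of 0.044 and an adjusted p of 1.00.

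In the list of lipoprotein receptors and uptake, 11 of 12 genes were tested, 6 with a positive and 5 with a negative log2 fold change (median 0.01). Lrp1, an endocytic receptor, was the most abundant per length at 186 ± 69.5 CPM in controls and 188 ± 50.1 CPM in delipidated libraries. Lrp8, a receptor of apolipoprotein E, stood at 3.63, 9.98 and 3.19 CPM in controls and 0.988, 3.01 and 2.54 CPM in delipidated libraries, and its groups did not overlap. Its log2 fold change was −1.36 (SE 0.85), −0.64 without control library 2, and it did not pass the edgeR test (adjusted p = 1.00).

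In the list of lysosomal cholesterol release, 9 of 10 genes were tested, 6 positive and 3 negative in log2 fold change (median 0.16). Rab7, a GTPase of late endosomes and lysosomes, was the most abundant gene of all 5 lists per length, at 454 ± 124 CPM in controls and 546 ± 127 CPM in delipidated libraries. Its log2 fold change was 0.27 (SE 0.23). Tmem97, which binds Npc1, stood at 11.04 ± 2.36 and 16.2 ± 6.42 CPM, with a log2 fold change of 0.55 (SE 0.48). With a library left out, the log2 fold change ranged from 0.058 to 0.52 for Rab7 and from 0.23 to 0.81 for Tmem97. Both genes overlapped between the groups. The lysosomal acid lipase gene Lipa, which frees cholesterol from its esters, had 6 counts in control library 1 and 0 in the other 5 libraries, and was picked out after its values were seen.

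Among 23 genes of endoplasmic reticulum contact sites and soluble carriers 22 were tested, 12 positive and 10 negative (median 0.03). The most abundant per length was Arf1, a Golgi GTPase that recruits Osbp, at 151 ± 29.1 and 165 ± 43.4 CPM. In the list of sterol efflux and apolipoproteins 9 of 12 genes were tested, 6 positive and 3 negative (median 0.16), and Abcg5 and Apoa1 were at 0 in every library. Apoe was the most abundant per length, at 4.89, 36.0 and 26.1 CPM in controls and 38.1, 36.1 and 26.1 CPM in delipidated libraries, where control library 1 alone was low. Abca5 stood at 6.67, 1.63 and 0.836 CPM in controls and 0, 0.553 and 0.282 CPM in delipidated libraries, without overlap, and Abca2 at 6.54 ± 1.58 and 10.3 ± 4.43 CPM. Their log2 fold changes were −3.43 (SE 1.58) and 0.65 (SE 0.57), that of Abca5 being −2.12 without control library 1, and neither passed the edgeR test (adjusted p = 1.00 for each). With a library left out, that of Abca2 ranged from 0.41 to 0.97.

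Of the 6 genes of cholesterol ester formation and hydrolysis 2 were tested, both with a positive log2 fold change (median 0.25). Nceh1, a hydrolase of cholesteryl ester, stood at 18.3 ± 6.90 CPM in controls and 19.2 ± 4.30 CPM in delipidated libraries. Lipe, the hormone-sensitive lipase, stood at 2.70, 1.09 and 0.684 CPM in controls and 0.0494, 3.75 and 2.26 CPM in delipidated libraries, so the groups overlapped. Soat2, the second esterifying enzyme, had 32 and 2 counts in control libraries 2 and 3, 7 in delipidated library 2 and 0 elsewhere, and was picked out after its values were seen. Among esterifying enzymes Soat1 was thus the one counted in every library.

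The genes most like Npc1, Scarb1 and Gramd1a over the 6 libraries were sought among 8127 tested genes with a mean of at least 10 CPM. Likeness was the root mean square difference of log2 CPM after subtracting each gene's mean. Nearest to Npc1 were Tmem106a (0.052), Erp29 (0.069) and Snrnp35 (0.088). Nearest to Scarb1 were Ankhd1 (0.164), Usf1 (0.205) and Wdr37 (0.214). Nearest to Gramd1a among these were Gm26917 (0.657), Lin52 (0.796) and Idua (0.838), but genes as low as Gramd1a were not among those compared. Gm26917, a long noncoding RNA, stood at 25.9, 115 and 393 CPM in controls and 45.8, 40.3 and 44.2 CPM in delipidated libraries.

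Promoter sequences from RefSeq (GRCm38.p6), 250 bases before to 50 after the start, were at hand for 6 of the 9 genes, with 8 promoters in all. Motifs were searched as letters on both strands, and a match is a description only. The E-box CACGTG was in promoters of Abca1 and Gramd1c, 2 of the 6 genes and 3 of the 8 promoters, and in 7.15% of all 32851 promoters. Gramd1c has 3 of the 8 promoters and Abca1 has 1, so the 3 matches do not come from separate genes. The sterol regulatory element, searched as TCACNCCAC, was in 0 of the 8 and in 1.24% of all promoters. The element of the sterol receptor LXR, AGGTCA repeated with 4 bases between, was in 0 of the 8 and in 5 promoters of all. The GC box GGGCGG was in promoters of 5 genes, Abca1, Gramd1a, Npc2, Osbp and Soat1, against 35.7% of all promoters, and CCAAT in promoters of Gramd1a, Gramd1c, Npc2, Osbp and Soat1, against 37.4%.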

How the data were processed

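The deposited values are raw counts per exonic part for each of 6 libraries. According to the submitters' processing notes, the authors used bcl2fastq 2.20, Trimmomatic 0.36, STAR 2.5.2b and featureCounts with the build mm10. Here the 425461 parts were summed per gene. Parts under joined identifiers went to the gene whose exons they overlap in GENCODE M21 if there was 1, and were otherwise left out (2.49% to 2.57% of a library's counts). Whether the counting used strand is not given in the sources used here, so overlapping genes are uncertain. The groups follow the sample titles. Replicates are separate pools of 3 embryos, and p-values measure the spread between these pools. The study mixed the embryos of 6 females before allocating them to the groups at random, and then filled the 3 tubes of each group. The p-values thus do not cover variation between females or between separate collections of embryos. Genes were tested with edgeR 4.0.16 in R 4.3.3 (filterByExpr at minimum count 10 and total 15, TMM, quasi-likelihood test, no covariates), with Benjamini-Hochberg adjustment over 16020 genes. The common biological coefficient of variation was 0.663. CPM were computed on the tested totals times the TMM factors, and likeness on log2(CPM + 0.5). Calls needed an adjusted p below 0.05 and an absolute log2 fold change above 1. The test was also tried on counts simulated from the means, dispersions and depths of these libraries, with 200 genes changed. There edgeR called 10% of 2-fold, 30% of 4-fold, 60% of 8-fold and 66% of 16-fold changes, and 1 unchanged gene. DESeq2 called 109 changed and 37 unchanged genes. Most changes of 2-fold and 4-fold were thus missed by edgeR, so 0 calls do not mean that no gene changed.

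The 9 genes and the lists were chosen with earlier results of these data known. Named genes are the 9, those called, from each of 5 sterol lists the genes with an unadjusted p-value under 0.05 or otherwise the 2 with the smallest, the most abundant per length of every list, and the 3 most like Gramd1a, Npc1 and Scarb1. One gene that this rule names is not reported here. Alternatives were DESeq2 1.42.0, limma-voom (limma 3.58.1), other scalings, filters and ways to sum parts, no fold threshold, the replicate number as a block, and each library left out. A comparison of the proteins was not run here.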

Additional observations from a re-analysis of the deposited data

How the results depend on the processing

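Of 17 alternatives, 15 left the counts of genes called higher and lower at 0, and all 17 left those of the sterol lists at 0. Removing the filter gave 5 calls higher and 25 lower, DESeq2 gave 9 and 40, and the median log2 fold change of all genes was then −0.18 and −0.17. Npc1, Npc2 and Osbp moved by less than the spread between libraries under 16 alternatives each, though Npc2 was positive in 3 and Osbp negative in 4. With the part of most counts in place of the sum, the log2 fold change was 0.49 for Scarb1, 0.31 for Gramd1b, 0.72 for Gramd1c and 0.37 for Soat1. Leaving out each library in turn gave −1.09 to −0.47 for Scarb1, −0.75 to −0.18 for Gramd1b, −0.97 to 0.27 for Gramd1c, −3.65 to 2.64 for Abca1 and −0.15 to −0.025 for Soat1. The replicate number as a block gave 1.69 for Abca1 and left the counts of calls at 0. The numbers do not pair the libraries, since same-numbered libraries correlated at −0.084, 0.070 and 0.043 and 4 of 6 libraries correlated best with another number. Gramd1a had no fold change in the test as set, and a fitted one would depend on the prior count. Its control mean was between 0.288 and 5.75 CPM under 7 alternatives. In the lists, Lrp1 reversed to −0.0017 without TMM and −0.39 with the part of most counts (−0.20 to 0.36 with a library left out), Nceh1 to −0.37 with that part (−0.16 to 0.40) and Lipe to −0.83 with limma-voom (−0.37 to 1.18), and Arf1 ranged from −0.11 to 0.31 with a library left out. The cause was not tested. Dividing sums by the ratio of part sums to reads was not run. For Gramd1a and Abca1, depth limits any comparison to the few reads counted.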

Other observations

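Parts of protein-coding genes that belong only to noncoding transcripts, such as retained introns, took 1.53%, 1.56% and 1.76% of the counts of such genes in control libraries 1, 2 and 3 and 1.56%, 1.51% and 1.54% in the delipidated libraries. The share thus overlapped between the groups. The number of these parts with a count was 13998, 14109 and 11354 in controls and 8487, 11286 and 11987 in delipidated libraries. The percentage of counts from mitochondrial genes was 3.66, 3.63 and 4.94 in controls and 5.23, 4.99 and 3.99 in delipidated libraries, also with overlap.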
